A study of Mus musculus with 6 samples.

Results

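The genes described here are 38 nuclear genes for subunits of respiratory complexes II, III, IV and V and for cytochrome c, measured in mouse oocytes that had matured in culture with or without metformin. They were taken by symbol (GENCODE M21) from a table of 55487 genes and comprise 4 genes of complex II, 9 of complex III, the somatic cytochrome c gene Cycs, 10 of complex IV and 14 of complex V. Libraries of 2 groups were compared, 3 labelled control and 3 labelled metformin, a biguanide drug. Oocytes of both groups came from females primed with 10 IU of the gonadotropin PMSG, were taken as fully grown germinal-vesicle oocytes 46 to 48 h afterwards, were freed of cumulus cells by pipetting, and spent 16 h in M16 medium until metaphase II. The control medium held no metformin. Doses of 10, 20 and 50 μM stand in the protocol, which does not say which of them the sequenced oocytes received. The series title speaks of aged mice, and the sample labels state neither age nor strain, nor how many animals or oocytes were pooled in a library.

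The respiratory chain passes electrons from complexes I and II through ubiquinone to complex III, through cytochrome c to complex IV and on to oxygen, and complex V uses the resulting proton gradient to make ATP. All subunits of complex II and most subunits of the others are encoded in the nucleus and imported, whereas cytochrome b, the 3 core subunits of complex IV and a pair of complex V subunits come from mitochondrial DNA. Oocytes depend on oxidative phosphorylation of pyruvate, and a maturing oocyte makes little new RNA and works largely from mRNA stored during growth. Metformin is known as an inhibitor of complex I.

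The libraries held between 8622281 and 10588292 counted reads, and reads of the 38 genes were 0.202% to 0.232% of them. Gdf9, Zp3 and the 8 other oocyte markers examined were present in every library. Of 14 cumulus and granulosa markers, Amh, Amhr2, Foxl2 and Ptx3 were at 0 in all libraries, and the list's summed level, nearly all of it Serpine2, was 1429 ± 90.9 CPM over the control and 1422 ± 246 CPM over the metformin libraries (CPM, counts scaled to library size; SD, n = 3 each). Over these 14 markers the median level was 0.271 CPM, and 2 of them had enough reads to be tested. Control 1 held 281 haemoglobin and 45 collagen reads, against 0 to 2 and 0 to 4 in the other libraries. The 8 stroma and endothelial markers examined summed to 32.6 ± 2.98 CPM over the control and 30.3 ± 6.36 CPM over the metformin libraries. Counts were scaled to a common library size, so fewer oocytes in a library and less RNA per oocyte cannot be told apart.

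Many of these genes have left processed copies in the mouse genome, and the sequences of 3 families show why this matters for the values that follow. In the coding sequences below, read 5′ to 3′ without the stop codon from GENCODE M21 transcripts (GRCm38) and cut to the first 120 bases for Cycs and Atp5g2, capitals mark bases that differ from the subunit gene. The Cox7c coding sequence (chr13:86044816-86046904, minus strand, 189 bases) is the same, base for base, as that of the processed pseudogene Gm12338 (chr11:75599763-75599954, minus strand), and the transcribed processed pseudogene Gm10012 (chr17:25901856-25902227, plus strand) differs at 2 bases.

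Cox7c and Gm12338: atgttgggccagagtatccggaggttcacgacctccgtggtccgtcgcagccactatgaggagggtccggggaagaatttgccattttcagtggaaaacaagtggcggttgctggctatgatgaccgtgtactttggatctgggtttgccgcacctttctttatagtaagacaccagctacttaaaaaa
Gm10012: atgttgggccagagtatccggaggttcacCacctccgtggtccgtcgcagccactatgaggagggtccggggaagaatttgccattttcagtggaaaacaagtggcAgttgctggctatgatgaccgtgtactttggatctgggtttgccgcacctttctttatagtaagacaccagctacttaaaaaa

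The Cycs coding sequence (chr6:50562563-50566538, minus strand, 315 bases) is likewise identical in Gm10053 (chr19:24875686-24876631, plus strand), a copy that the annotation calls protein-coding, and differs at 2 bases from that of the processed pseudogene Gm10108 (chr5:13121448-13121766, minus strand).

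Cycs and Gm10053: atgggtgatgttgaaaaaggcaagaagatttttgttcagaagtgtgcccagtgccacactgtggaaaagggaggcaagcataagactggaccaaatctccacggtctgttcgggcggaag
Gm10108: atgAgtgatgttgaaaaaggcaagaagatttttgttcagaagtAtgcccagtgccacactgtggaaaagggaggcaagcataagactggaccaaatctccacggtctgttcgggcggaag

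The third family is that of Atp5g2 (chr15:102662864-102672352, minus strand), 1 of 3 genes for the c subunit that forms the rotating ring of ATP synthase. Its 438 coding bases are identical to those of the transcribed processed pseudogene Gm10175 (chr7:23946646-23947290, minus strand).

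Atp5g2 and Gm10175: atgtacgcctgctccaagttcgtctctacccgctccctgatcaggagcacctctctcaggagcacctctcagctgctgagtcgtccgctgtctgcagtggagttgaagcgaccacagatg

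A read that falls within such a shared stretch matches both places equally well, and how the authors' counting assigned these reads is not given in the sources used here. Copies were sought by aligning each coding sequence to all annotated transcripts, with at least 90% identity over at least 50% of the coding bases. Of the 38 genes, 20 had at least 1 such copy and 18 had none. The 68 copies included 64 processed pseudogenes, 56 of the 68 had at least 1 read, and together they held 10.8% of the reads of the genes and their copies.

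For 6 genes the copies held more reads than the gene. Over all 6 libraries, Atp5g2 had 37 reads and Gm10175 had 653, so that 94.7% of the family's reads lay under copies. Atp5l, subunit g of ATP synthase, had 240 of its family's 2224 reads and its pseudogene Gm10221 had 1446. Atp5g1, another c-subunit gene, had 104 reads against 626 under Gm10039. Cox7c had 63 of 407 family reads and Gm12338 had 282. Atp5h, subunit d of the ATP synthase stalk, had 1173 reads against 3485 under Gm10250. Cycs had 2715 of 7039 family reads, with 3225 under Gm10053 and 835 under Gm10108. The levels of these 6 genes are therefore uncertain, and the fold change of each is also given with the copies' reads added. Cox5b, a zinc-binding subunit of complex IV, followed with 37.9% of family reads under its copy Gm11273, and Uqcrb and Cox6c had 20.5% and 19.6% under copies.

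**Figure D1:**
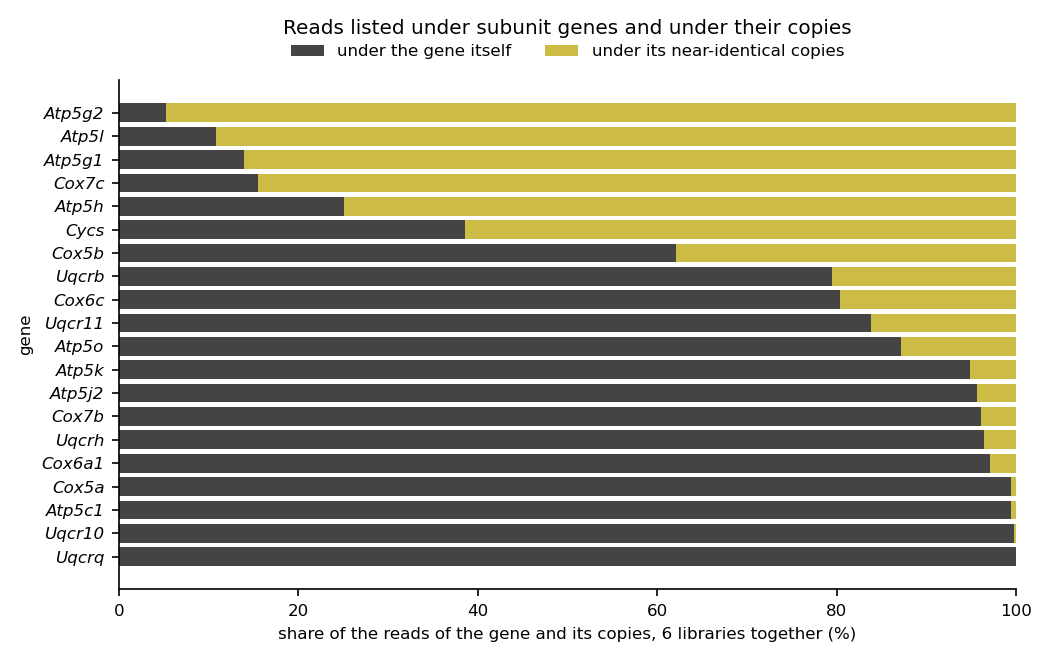
Horizontal bars give, for each of the 20 genes with a near-identical copy, the percentage of the family's reads in 6 libraries together that was listed under the gene (dark) and under its copies (yellow). Atp5g2, Atp5l, Atp5g1, Cox7c, Atp5h and Cycs, at the top, have more reads under copies than under the gene, from 61.4% to 94.7%.

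Levels of the 38 genes spanned a 1574-fold range of deposited FPKM (reads scaled by gene length and library size, mean of 6 libraries). Of them, 29 stood at or above 2.52 FPKM, the median of all 12793 genes tested. Complex IV had the highest median level, 31.2 FPKM, followed by complex III with 12.5, complex II with 7.61 and complex V with 3.65. The FPKM values need a caution. For 97.1% of 7467 well-covered genes, the length implied by count and FPKM equals, within 1 base, the summed length of all distinct annotated exons, which counts overlapping alternative exons repeatedly. For the genes described here that length was 1 to 14.3 times the principal transcript (median 2.78 times). Levels are therefore also given as CPM per kilobase of the principal transcript, an alternative added after these lengths were seen. The orders of the 38 genes on the 2 scales were related (Spearman's rho 0.934, a description over genes measured in the same libraries), but complexes II and V changed places. By CPM per kilobase the medians were 165 for complex IV, 25.9 for complex III, 13.6 for complex V and 9.37 for complex II, and the 38 genes spanned 1461-fold. With the copies' reads added, also after they were seen, that span was 609-fold, from Cox8a to Uqcrc1, and the median of complex V was 22.01.

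Complex IV, cytochrome c oxidase, supplied the most abundant of these mRNAs. Cox8a, a small membrane subunit (chr19:7215153-7217616, minus strand), stood at 282 ± 23.3 FPKM (SD, n = 6 libraries) and was first on both scales, with 545 ± 73.6 CPM per kilobase. Cox7a2 followed with 174 ± 19.0 FPKM, Cox6a1 with 113 ± 13.5 FPKM, and Cox6b1, which lies on the intermembrane side, with 82.3 ± 15.5 FPKM. Cox6c ranked 10 by FPKM with 21.2 ± 3.35 and 4 by CPM per kilobase of principal transcript with 223 ± 34.8. Cox7c was lowest, at 0.619 ± 0.247 FPKM and 1.99 ± 0.720 CPM per kilobase. Within complex IV the highest and lowest subunit thus differed 456-fold by FPKM and 274-fold by CPM per kilobase. With the copies' reads added, Cox7c stood at 12.9 ± 4.59 CPM per kilobase and the difference was 42.3-fold.

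The other complexes differed in how even their subunit mRNAs were. The 4 subunits of complex II lay within 2.99-fold of each other, from 3.57 ± 1.07 FPKM for Sdhb to 10.7 ± 3.27 FPKM for Sdhd (SD, n = 6). By CPM per kilobase they lay within 3.06-fold, with Sdha, at 20.1 ± 2.59, in place of Sdhd at the top. In complex III the core protein gene Uqcrc2 stood at 76.9 ± 6.33 FPKM and its partner Uqcrc1 at 0.238 ± 0.0506 FPKM. Their mRNA levels thus differed 323-fold by FPKM and 157-fold by CPM per kilobase. The 2 proteins, which were not measured here, occur in equal number in the complex. Of the 2 nuclear-encoded electron carriers of complex III, Cyc1, cytochrome c1, was also low, at 0.306 ± 0.0765 FPKM. Uqcrfs1, the Rieske iron-sulfur protein, stood at 3.94 ± 1.08 FPKM. That was below the complex's median of 12.5 but above 2.52, the median of all genes tested. In complex V the catalytic β subunit gene Atp5b led with 44.5 ± 3.34 FPKM. Its partner in the catalytic ring, the α subunit gene Atp5a1, stood at 12.3 ± 1.54 FPKM, and the γ subunit gene Atp5c1 at 22.7 ± 2.12 FPKM. As listed, the c-subunit genes were at 3.39 ± 0.564 FPKM for Atp5g3, 0.298 ± 0.0750 for Atp5g2 and 0.179 ± 0.132 for Atp5g1, the lowest of all 38. These places rest on reads divided with copies. With the copies' reads added, Atp5g2 ranked 20 of 38 in place of 35 by CPM per kilobase, at 27.3 ± 4.82, and Atp5g1 ranked 36 at 2.71 ± 0.633, above Cyc1 and Uqcrc1.

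Uqcrc1 and Cyc1 have no near-identical copy, so their low values do not involve reads divided in this way. Uqcrc1 had 18, 13 and 15 reads in control 1 to 3 and 10, 13 and 17 in metformin 1 to 3, whereas Uqcrc2 had between 2327 and 3046 reads in every library. The level of a gene in poly(A)-primed libraries also moves with the length of its poly(A) tail, and its part in these differences was not tested. Exons of some genes overlap a gene on the other strand, whose reads cannot be told apart in unstranded libraries. Besides Uqcrb and Atp5j, treated below, these include Uqcrc2 (504 bases, Pdzd9, 6 reads) and Cox5a (269, Gm26631, 222 reads). They also include Cox6c (250, Vps13b, 2168 reads), Cox4i1 (154, Emc8, 988 reads) and Atp5a1 (129, Haus1, 4194 reads).

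**Figure D2:**
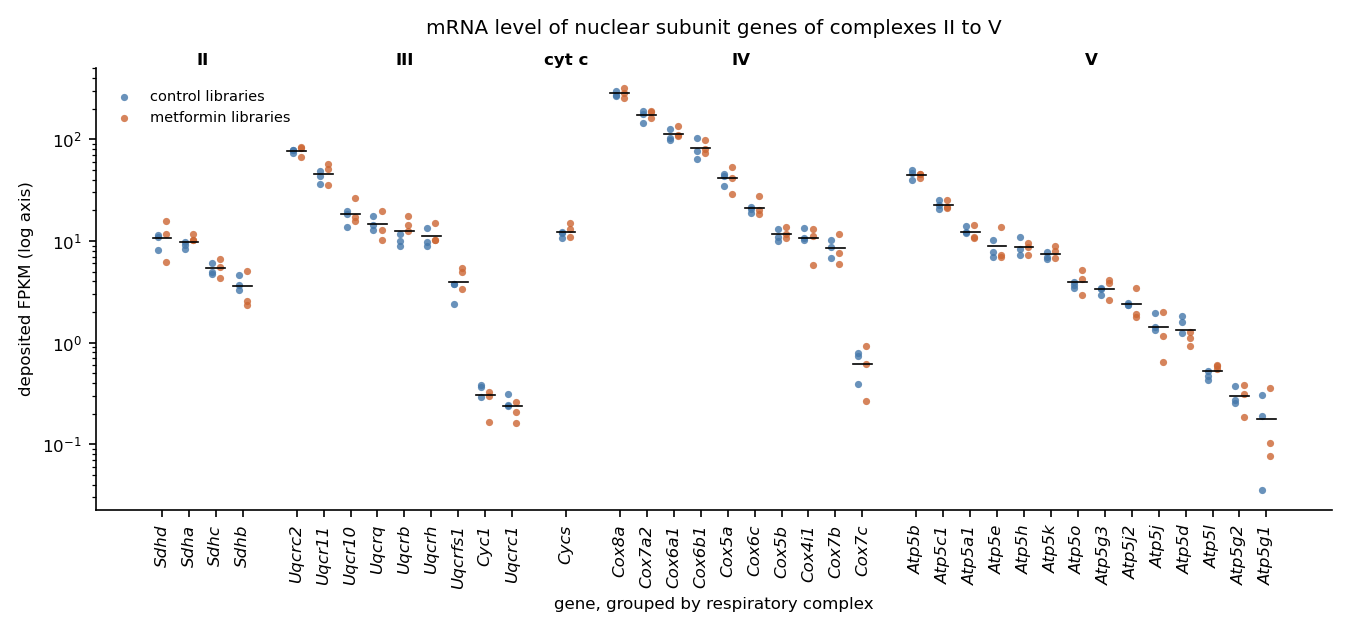
Points give the deposited FPKM (log axis) of each of the 38 genes in each of 3 control (blue) and 3 metformin (orange) libraries, with genes grouped by complex. Levels within complexes III, IV and V span more than those of complex II, and the control and metformin points of most genes lie among each other.

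The comparison of metformin with control asked whether any of these mRNAs differ when the drug is in the maturation medium. None of the 37 tested genes passed the threshold (adjusted p under 0.05, edgeR's quasi-likelihood test with Benjamini-Hochberg adjustment over 12793 genes), and the adjusted p of every one was 0.9996. Over all genes, 5 passed (0.0391%). The remaining gene, Atp5g2, had too few reads to be tested. At an unadjusted p under 0.05 there was 1 gene, Uqcrb, against 192 of all genes tested (1.50%). DESeq2 and limma-voom also called 0 of the 37, each with 1 gene, Uqcrb, at an unadjusted p under 0.05. Without metformin 2, 3 of the 37 were under it by edgeR (Atp5j, Sdhb and Uqcrb), and without control 2, control 3 or metformin 3 there were 0.

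Of the 37 genes, 26 were fitted higher and 11 lower in metformin libraries. Their median log2 fold change was 0.07 (quartiles -0.04 and 0.16). Among all genes tested 52.5% were fitted higher, with a median of 0.01. Without metformin 2, 18 of the 37 were fitted higher and their median was -0.02, and without metformin 1 the median was 0.18. Without control 2 it was 0.03. With library size alone as the scaling, 22 were fitted higher. Summed over all 38 genes, the level was 2142 ± 150 CPM over the control and 2228 ± 230 CPM over the metformin libraries (SD, n = 3 each), and the groups overlapped. By groups that do not overlap, 4 of the 37 genes stood out, against 5.63% of all genes tested. Sdha, Uqcrb and Atp5l were higher in every metformin than in every control library, where 2.84% of all genes were, and Atp5d was lower, where 2.79% were.

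**Figure D3:**
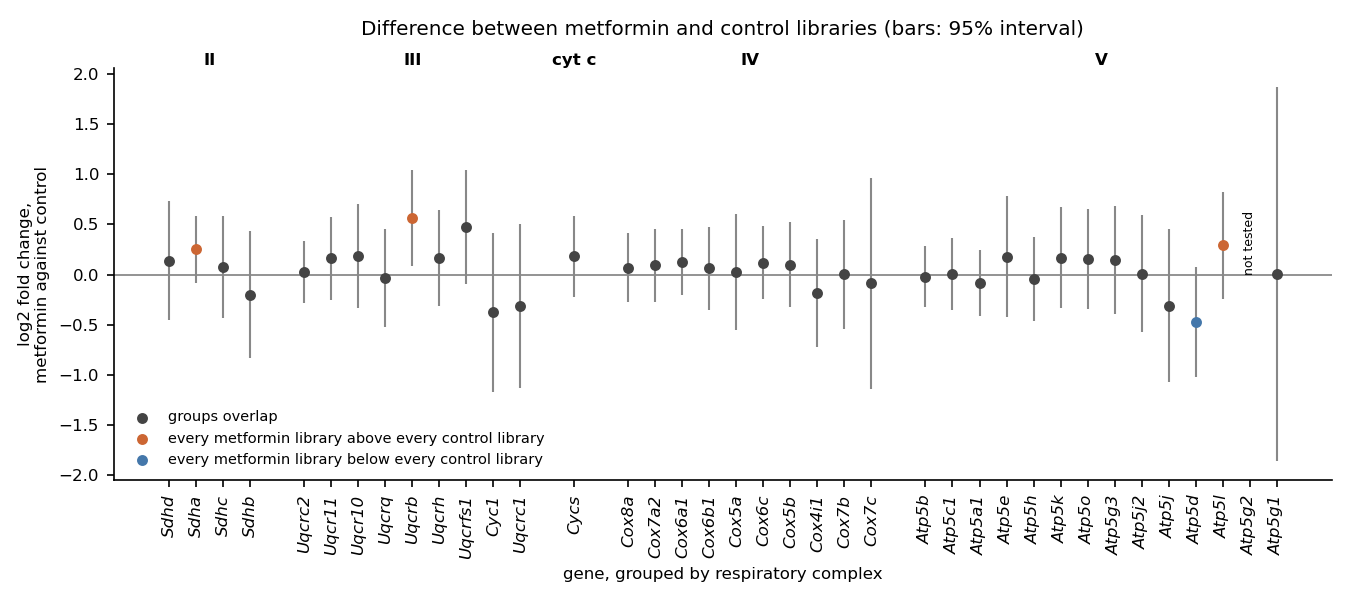
Points give the log2 fold change of each tested gene (metformin against control, edgeR) and bars its 95% interval, with genes grouped by complex. Every interval but that of Uqcrb includes 0, and coloured points mark the 4 genes whose groups do not overlap.

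Complex II, succinate dehydrogenase, links the citric acid cycle to ubiquinone. Sdha (chr13:74322254-74350280, minus strand) encodes the flavoprotein that oxidises succinate. It stood at 48.0, 55.9 and 56.1 CPM in control 1 to 3 and at 56.4, 69.3 and 64.9 CPM in metformin 1 to 3. The lowest metformin library lay just above the highest control library. The fitted log2 fold change was 0.25 (SE 0.15, 95% interval -0.08 to 0.59) with an unadjusted p of 0.126 and an adjusted p of 0.9996 by edgeR's quasi-likelihood test. Sdhb (chr4:140961203-140979193, plus strand) encodes the iron-sulfur subunit. Its levels were 9.36, 11.6 and 8.88 CPM in control 1 to 3 and 6.37, 13.1 and 6.55 CPM in metformin 1 to 3. Metformin 2 was above all control libraries and both other metformin libraries below all of them, and the log2 fold change was -0.20 (SE 0.29). Without metformin 2 it was -0.62 (unadjusted edgeR p 0.0320), and without metformin 1 it was -0.02.

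The membrane anchors of complex II, which bind ubiquinone and heme, gave no separation between the groups. Sdhc (chr1:171127165-171150603, minus strand) stood at 18.5, 17.9 and 24.5 CPM in control 1 to 3 and 15.5, 21.1 and 27.6 CPM in metformin 1 to 3, a log2 fold change of 0.08 (SE 0.23). Sdhd (chr9:50596357-50603812, minus strand) stood at 13.7, 13.1 and 10.4 CPM in control 1 to 3 and 18.3, 14.3 and 8.29 CPM in metformin 1 to 3, a log2 fold change of 0.14 (SE 0.27). The metformin libraries held both the highest and the lowest value of each anchor gene. Summed over the 4 subunits, complex II stood at 96.0 ± 5.60 CPM over the control and 107 ± 10.6 CPM over the metformin libraries (SD, n = 3 each), with overlap.

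Complex III, the cytochrome bc1 complex, had the gene with the smallest p. Uqcrb (chr13:66900617-66905378, minus strand), a small subunit beside the ubiquinone-binding site, stood at 12.5, 10.7 and 10.2 CPM in control 1 to 3 and 13.0, 15.7 and 20.8 CPM in metformin 1 to 3. Metformin 1 was close to control 1, and metformin 3 was the highest by a wide margin. The log2 fold change was 0.56 (SE 0.22, 95% interval 0.09 to 1.04), with an unadjusted p of 0.0246 and an adjusted p of 0.9996 by edgeR's quasi-likelihood test. Without metformin 3 the value was 0.36 and its unadjusted edgeR p was 0.121. Without control 2 or control 3 the unadjusted p was 0.0658 and 0.0751. Uqcrb has 4 copies with reads. With them the family stood at 15.6, 14.6 and 14.4 CPM in control 1 to 3 and 15.7, 20.1 and 24.3 CPM in metformin 1 to 3, still without overlap, at a log2 fold change of 0.43 (SE 0.20, unadjusted edgeR p 0.0531). Its exons also share 50 bases with Gm10767 on the other strand, and in unstranded libraries reads from these bases cannot be told apart.

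The catalytic and core subunits of complex III lay on both sides of 0. Uqcrfs1 (chr13:30540308-30545362, minus strand) stood at 5.05, 4.97 and 3.41 CPM in control 1 to 3 and 6.94, 6.68 and 5.01 CPM in metformin 1 to 3. Only control 1 was above the lowest metformin library, and the log2 fold change was 0.47 (SE 0.26, 95% interval -0.09 to 1.04, unadjusted edgeR p 0.0929). Cyc1 (chr15:76343523-76346260, plus strand) had 18, 16 and 15 reads in control and 15, 17 and 9 in metformin libraries, a log2 fold change of -0.38 (SE 0.36). Metformin 3 was the low library, and at such counts only large differences could be detected. Uqcrc1 (chr9:108936633-108949623, plus strand), with the reads given above, had a log2 fold change of -0.31 (SE 0.37).

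Uqcrc2 (chr7:120635176-120659524, plus strand) was the most precisely measured gene of complex III. It stood at 266, 265 and 261 CPM in control 1 to 3 and 263, 229 and 312 CPM in metformin 1 to 3. The 3 control libraries were nearly equal and the metformin libraries lay on both sides of them. The log2 fold change was 0.02, with a 95% interval of -0.29 to 0.33. The 4 other small subunits, Uqcrq, Uqcrh, Uqcr10 and Uqcr11, all reached their highest level in metformin 2, with log2 fold changes from -0.04 to 0.19. In all, 6 of 9 genes of complex III were fitted higher, with a median of 0.16 that was -0.04 without metformin 2 and 0.03 without control 2. The summed level was 412 ± 20.9 CPM over the control and 433 ± 24.9 CPM over the metformin libraries.

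Cytochrome c carries electrons from complex III to complex IV. Cycs stood at 44.5, 39.0 and 46.9 CPM in control 1 to 3 and 38.3, 49.2 and 60.3 CPM in metformin 1 to 3. Metformin 1 was the lowest of the 6 libraries and metformin 3 the highest, and the log2 fold change was 0.18 (SE 0.19). With the reads of its copies, the family stood at 116, 102 and 122 CPM in control 1 to 3 and 101, 123 and 157 CPM in metformin 1 to 3, with the same library lowest and the same highest and a log2 fold change of 0.17 (SE 0.17). The testis form of cytochrome c, Cyct, was present at 4.85 ± 1.09 FPKM (SD, n = 6) and had a log2 fold change of -0.27 (SE 0.30).

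In complex IV the 3 genes with the smallest p were Cox6a1, Cox4i1 and Cox6c. Cox6a1 (chr5:115345642-115348981, minus strand) stood at 146, 119 and 123 CPM in control 1 to 3 and 122, 159 and 143 CPM in metformin 1 to 3, a log2 fold change of 0.13 (SE 0.15). Cox4i1 (chr8:120668222-120674207, plus strand), a subunit through which ATP regulates the enzyme, stood at 34.7, 27.5 and 28.2 CPM in control 1 to 3 and 28.2, 34.5 and 16.6 CPM in metformin 1 to 3. Metformin 3 was far below the other libraries, and the log2 fold change was -0.19 (SE 0.24). Cox6c (chr15:35925886-35938246, minus strand) stood at 112, 97.2 and 114 CPM in control 1 to 3 and 101, 146 and 104 CPM in metformin 1 to 3, a log2 fold change of 0.12 (SE 0.17). Metformin 2 alone was above all control libraries.

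The most and the least abundant genes of complex IV did not separate the groups. Cox8a stood at 274, 276 and 327 CPM in control 1 to 3 and 255, 302 and 364 CPM in metformin 1 to 3, a log2 fold change of 0.07 (SE 0.16, 95% interval -0.27 to 0.41). Both groups held low and high libraries. Cox7c had 12, 12 and 7 reads in control and 16, 11 and 5 in metformin libraries, a log2 fold change of -0.09 (SE 0.48). With its copies the family had 91, 67 and 38 reads in control and 69, 99 and 43 in metformin libraries, a log2 fold change of -0.02 (SE 0.36). Over the complex, 8 of 10 genes were fitted higher, 5 of 10 without metformin 2, and the summed level was 1034 ± 95.02 CPM over the control and 1088 ± 158 CPM over the metformin libraries.

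Complex V, ATP synthase, was fitted higher for 8 genes and lower for 5 (median 0.01 on the log2 scale, 0.18 without metformin 1 and -0.04 without metformin 2), and its summed level was 557 ± 42.4 CPM over the control and 551 ± 33.9 CPM over the metformin libraries. Atp5b (chr10:128083273-128090391, plus strand) stood at 332, 269 and 334 CPM in control 1 to 3 and 295, 287 and 339 CPM in metformin 1 to 3. The log2 fold change was -0.02 with a 95% interval of -0.33 to 0.28, the narrowest of the 37. Atp5d (chr10:80138632-80145818, plus strand), the δ subunit of the rotor stalk, stood at 5.57, 6.44 and 4.65 CPM in control 1 to 3 and 3.80, 4.62 and 3.58 CPM in metformin 1 to 3. The highest metformin library lay just under the lowest control library, at a log2 fold change of -0.47 (SE 0.25, 95% interval -1.02 to 0.08, unadjusted edgeR p 0.0854). The ε subunit gene Atp5e, whose product binds next to δ, had a log2 fold change of 0.18 (SE 0.27).

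Subunits of the stator and the membrane part of complex V included the other gene without overlap. Atp5l (chr9:44912557-44920742, minus strand) stood at 3.57, 3.96 and 3.51 CPM in control 1 to 3 and 4.28, 4.22 and 5.01 CPM in metformin 1 to 3, a log2 fold change of 0.29 (SE 0.24, unadjusted edgeR p 0.255). With the reads of its copies the groups overlapped, at 41.6, 35.05 and 36.6 CPM in control 1 to 3 and 32.2, 41.7 and 41.0 CPM in metformin 1 to 3, and the log2 fold change was 0.02 (SE 0.17). Atp5h (chr11:115415689-115419962, minus strand) was fitted at -0.05 on the log2 scale (SE 0.19), as was its family with copies (-0.05, SE 0.15). Atp5j (chr16:84827866-84835625, minus strand), coupling factor 6, stood at 10.1, 6.90 and 7.96 CPM in control 1 to 3 and 5.80, 10.6 and 3.68 CPM in metformin 1 to 3. Its log2 fold change was -0.31 (SE 0.35), and metformin 2 was the highest of all libraries while the other metformin libraries were the lowest. Without metformin 2 it was -0.81 (unadjusted edgeR p 0.0238), and without metformin 3 it was -0.02. Atp5j shares 397 exon bases with Gabpa on the other strand, and reads from these cannot be told apart.

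The 3 c-subunit genes encode the same mature protein with different import signals. Atp5g1 (chr11:96068852-96075670, minus strand) had 28, 3 and 19 reads in control and 10, 36 and 8 in metformin libraries, the widest scatter of the 37, and its log2 fold change of 0.01 had a 95% interval of -1.86 to 1.87. With the copies' reads added, the family had 142, 114 and 130 reads in control and 125, 163 and 73 in metformin libraries, and the log2 fold change was -0.22 (SE 0.26). Atp5g2 had 5, 5 and 8 reads in control and 8, 4 and 7 in metformin libraries. With its copies it had 111, 87 and 143 reads in control and 109, 112 and 142 in metformin libraries and could be tested, at a log2 fold change of -0.02 (SE 0.23). Atp5g3 (chr2:73908447-73911326, minus strand), which held most c-subunit reads outside the copies, stood at 9.88, 8.37 and 10.3 CPM in control 1 to 3 and 7.23, 11.2 and 13.2 CPM in metformin 1 to 3, a log2 fold change of 0.14 (SE 0.25). With copies summed for all families, 0 of 38 genes passed the threshold, and Sdha, Uqcrb and Atp5d had groups that did not overlap. Sdha and Atp5d have no copies, so their reads are the same in this setting. The share of all genes without overlap in this setting is not given here.

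Each gene's log2 CPM was set against its own mean over the 6 libraries, and the median of these deviations over the 37 genes was 0.04, -0.08 and 0.03 in control 1 to 3 and -0.19, 0.22 and -0.04 in metformin 1 to 3. Metformin 2 was high and metformin 1 low, while the medians over all genes tested were between 0.00 and 0.01 in every library. By these medians metformin 2 was also the highest library in each of the 4 complexes. By summed CPM it was highest in complex II alone. Metformin 3 then stood above metformin 2 in complexes III (458 against 433), IV (1192 against 1167) and V (586 against 548). Control 1 was also above metformin 2 in complex III, at 435, and both control 1 and control 3 were in complex V, at 581 each. Over all 38 genes the sums were 2403 CPM in metformin 3 and 2315 CPM in metformin 2. In metformin 2 the median deviation was 0.21 for complex II, 0.33 for complex III, 0.19 for complex IV and 0.18 for complex V, and in metformin 1 it was -0.21, -0.07, -0.14 and -0.21. Control 2, at -0.06 and -0.14, was nearly as low as metformin 1 in complexes III and IV. Of the 37 genes, 15 had their highest level in metformin 2, as did 13.6% of all genes tested, and 12 in metformin 3, as did 21.3%. Their lowest level lay in metformin 1 for 11 genes (20.1% of all genes) and in control 2 for 10 (15.9%). Nuclear genes of complex I were highest in metformin 2 too, at a median deviation of 0.17, and lowest in control 2, at -0.19. The partner subunits from mitochondrial DNA were at 0.19 in metformin 2, below metformin 3 at 0.28 and control 3 at 0.23. In metformin 1 these partners were at -0.42. Other short transcripts were alike in part, since 256 other tested coding genes under 700 bases had median deviations of -0.15, 0.09 and 0.14 in metformin 1 to 3. The 15 subunit genes under 700 bases were at -0.15, 0.22 and 0.02 in metformin 1 to 3. The 22 of 700 bases or more were at -0.19, 0.18 and -0.13. The 10232 other tested coding genes of 700 bases or more were at 0.03, -0.002 and -0.01. Transcript length was not tested as a source of the subunit genes' pattern. The genes share libraries, so these deviations are a description.

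**Figure D4:**
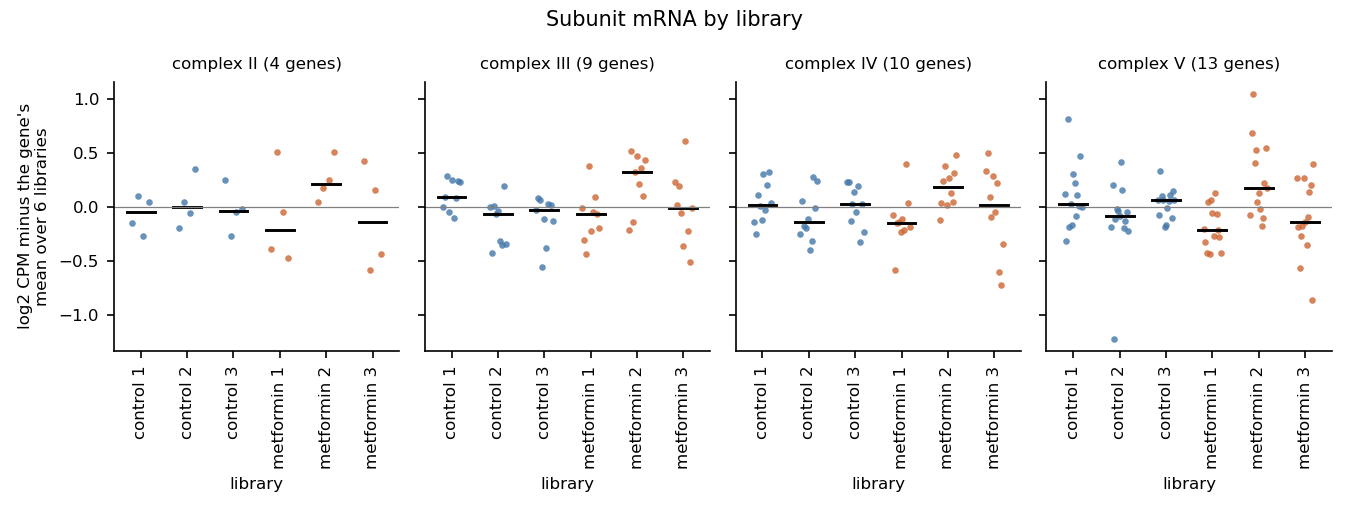
Points give each gene's log2 CPM minus its mean over the 6 libraries, by complex and library (blue control, orange metformin), and black lines are medians. The medians of metformin 2 lie highest in all 4 complexes, at 0.18 to 0.33, with single genes on both sides of 0 in most libraries.

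The 38 genes share features that their choice did not use. Their principal transcripts had a median of 823.5 bases against 2928 for the 10525 tested coding genes, with coding parts of 397.5 against 1398 bases and 3′ UTRs, stop codon included, of 190.5 against 938 bases. The hexamer TTTTAT, a form of the cytoplasmic polyadenylation element by which oocytes lengthen poly(A) tails during maturation, lay in the last 100 bases of the 3′ UTR (or the whole of a shorter one) of 1 gene, Cox5a, among 38 (2.63%), against 15.7% of tested coding genes. Of the 38 genes 32 had a 3′ UTR of at least 100 bases, as had 9837 of the 10525, and that of Atp5g2 was annotated with 3 bases. The genes lie on 16 chromosomes.

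Promoters of 30 of the 38 genes were found in the RefSeq set (GRCm38.p6, 250 bases before to 50 after the start), as 33 promoters. Letters known from promoters of respiratory genes were searched on both strands, each motif on its own, so that 1 promoter can hold several. The NRF1 core GCGCATGCG was in 7 of the 33 (21.2%), those of Atp5g2, Atp5k, Atp5l, Cox6a1, Cycs, Uqcr11 and Uqcrc1, and in 1.75% of all 32851 promoters. The ETS motif CCGGAAG, which GABP can bind, was in 12 (36.4%), Sdhb, Sdhd, Cox8a and Cox6a1 among them, and in 8.86% of all. The YY1 motif AAGATGGC was in 2 (6.06%), Atp5j and Atp5j2, and in 2.75% of all. The 32851 promoters were not limited to genes tested here, and promoters of tested genes alone were not compared. The genes with an NRF1 match included both abundant and scarce mRNAs, from Cox6a1 at 113 FPKM to Uqcrc1 at 0.238 FPKM.

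Alternative subunits and unlisted ones were examined beside the 38 genes. Cox6b2, known as the testis form of Cox6b1, stood at 66.3 ± 5.79 FPKM (SD, n = 6), against 82.3 ± 15.5 FPKM for Cox6b1 itself. It stood at 174, 205 and 195 CPM in control 1 to 3 and 153, 184 and 211 CPM in metformin 1 to 3, a log2 fold change of -0.07 (SE 0.15). In CPM, which is not scaled by length, Cox6b1 was lower in every library, at 118, 72.1 and 92.3 in control 1 to 3 and 87.8, 115 and 92.2 in metformin 1 to 3. Which of the 2 mRNAs is more abundant therefore depends on the length used, and CPM per kilobase is not given for Cox6b2. Ndufa4, a subunit found in complex IV despite its name, stood at 279, 274 and 308 CPM in control 1 to 3 and 228, 236 and 246 CPM in metformin 1 to 3. All metformin libraries were below all control libraries, at a log2 fold change of -0.28 (SE 0.12, unadjusted edgeR p 0.0460, adjusted p 0.9996), so that it did not pass the threshold. The tissue forms Cox4i2 and Cox6a2 were low, at 2.12 ± 0.503 and 2.84 ± 0.955 FPKM, Cox8b and Cox8c were at 0.0910 ± 0.223 and 0.616 ± 0.440 FPKM, and Cox7a1 and Cox7b2 were at 0 in all libraries. Cox7a2l, which helps join complexes III and IV, stood at 3.86 ± 1.25 FPKM, and Atp5f1, subunit b of ATP synthase, at 8.87 ± 0.870 FPKM. Atpif1, the inhibitor of ATP synthase, stood at 6.73 ± 1.75 FPKM, Usmg5 at 0.493 ± 0.157 FPKM and Atp5s at 0.175 ± 0.0943 FPKM. Of these 14 genes 9 were tested, 3 fitted higher, 6 lower and 0 called. Their summed level was 564 ± 19.1 CPM over the control and 506 ± 35.5 CPM over the metformin libraries, lower in every metformin than in every control library. Ndufa4 supplied the largest part of this sum in every library. It was the only 1 of the 9 tested genes without overlap, so the sum does not describe the list as a whole.

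Assembly factors, the 6 partner subunits from mitochondrial DNA, complex I and regulators gave no calls either. Of 34 assembly and maturation factors for these complexes and cytochromes, 26 were tested, 18 fitted higher and 8 lower, and the median difference was 0.07 on the log2 scale. The smallest p among them belonged to Uqcc2, a complex III assembly factor, which stood at 7.02 ± 1.00 CPM over the control and 9.12 ± 1.30 CPM over the metformin libraries (unadjusted edgeR p 0.115). Sdhaf3, a complex II assembly factor, followed with 4.53 ± 0.289 and 5.81 ± 0.630 CPM (unadjusted edgeR p 0.148). Both were higher in every metformin than in every control library. The 6 complex III assembly factors, Uqcc2 included, summed to 23.3 ± 0.810 and 25.4 ± 0.865 CPM, also without overlap. Of these 6, 3 were tested, 2 fitted higher and 1 lower, and only Uqcc2 was without overlap. The sum thus carries the difference of Uqcc2 and is no separate result. The sums for the other assembly lists overlapped. Hccs, which attaches heme to cytochrome c, stood apart in control 1, at 1.37 CPM against 13.7 to 21.2 CPM in the 5 other libraries.

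The mitochondrial DNA-encoded partners mt-Cytb, mt-Co1, mt-Co2, mt-Co3, mt-Atp6 and mt-Atp8 summed to 19563 ± 2714 CPM over the control and 19477 ± 4262 CPM over the metformin libraries (SD, n = 3 each), with log2 fold changes from -0.08 for mt-Co1 to 0.06 for mt-Cytb. Of the 36 nuclear subunits of complex I, the known target of the drug, 33 were tested. Their median was 0.09, 23 were fitted higher and 0 were called. Of 9 regulators of respiratory genes, 7 were tested, and all of these, Nrf1, Gabpa, Gabpb1, Yy1, Ppargc1b, Pprc1 and Tfam, were fitted higher by 0.01 to 0.22 on the log2 scale, with 0 called and overlapping groups for each. Ppargc1a was nearly absent at 0.0377 ± 0.0291 FPKM and Esrra was at 0 in all libraries.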

How the data were processed

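RNA from 6 oocyte samples, 3 control and 3 metformin, was sequenced after library construction with the SMART-Seq HT kit, per the labels' protocols. That chemistry starts from poly(A) tails and keeps neither strand nor molecular identifiers, so counting errors concern reads, not molecules. CASAVA 1.8, TopHat2 2.0.6 and mm10 are named in the submitters' processing notes. Not given in the sources used here are the counting program, its annotation and its treatment of reads with several matches. In 1 table the authors deposited raw counts and FPKM per gene, per the file headers. Counts were used as deposited, and FPKM only to describe levels.

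Symbols, coordinates (GRCm38) and transcripts came from GENCODE M21, with symbols for 55141 of 55487 identifiers. Of 2 identifiers named Atp5o, the one at 0 in every library was not used. Counts were tested with edgeR 4.0.16 (R 4.3.3; quasi-likelihood, robust, TMM scaling, filterByExpr at a minimum count of 10, Benjamini-Hochberg over 12793 genes, threshold 0.05). CPM values use TMM-scaled library sizes. SE is the log2 fold change divided by the square root of F. A floor of 3 counts was 0.283 to 0.348 CPM. Copies were found with blastn 2.17.0. DESeq2 1.42.0 and limma-voom (limma 3.58.1) were alternatives. The scripts were tested on simulated data.

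The labels do not say that samples came from separate animals or pools, so p-values measure only how far these samples spread, which may be technical. The genes, lists and tests were chosen with earlier results of these data known. Described by fold and test were all of complex II, Cycs, the 3 Atp5g genes, and of complexes III, IV and V the 3 smallest p, the highest and lowest mean FPKM, and any gene called or without overlap. Of the other lists, the 2 assembly factors with the smallest p, every isoform and the mitochondrial partners are given by value. Atp5e, Atp5h, Hccs and the regulators are named outside this rule, after their values were seen.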

Additional observations from a re-analysis of the deposited data

How the results depend on the processing

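No alternative called any of the 26 to 38 subunit genes it tested, and the smallest adjusted p of any of them was at least 0.997. Over all genes, 5 were called (3 higher, 2 lower), 9 with DESeq2 (7 higher), and 5 to 12 with 1 library left out (3 to 6 higher, 2 to 7 lower). Genes of complex V fitted higher, 8 in the text, numbered 4 where a mean of 10 CPM was asked (fewer genes tested). With 1 library left out they numbered 5 to 10, those of complex IV 5 to 8, and the medians ranged from -0.039 to 0.24 for complex III and from -0.043 to 0.175 for complex V. The sign of single fold changes near 0 turned on 1 library, with ranges of -0.47 to 0.23 for Cox7c, -0.12 to 0.029 for Atp5b, -0.15 to 0.26 for Sdhc, -0.13 to 0.39 for Sdhd, -0.071 to 0.21 for Cox6c, -0.10 to 0.12 for Uqcrc2, -0.43 to 0.057 for Cox4i1, -0.073 to 0.19 for Cox8a, -0.050 to 0.35 for Atp5g3 and -0.98 to 0.59 for Atp5g1. With copies summed Atp5g1 was at -0.22, and the cytochrome c family differed by 14.2 CPM in place of 5.81, an alternative added after the data were seen.

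Whether the replicate numbers pair the samples is not settled here. Deviations of same-numbered libraries correlated at 0.147, 0.0432 and 0.209, and those of differently numbered libraries at -0.182 to 0.0407. Each library correlated best with its own number, though weakly. With the number as a block, 0 subunit genes and 7 genes in all were called, 5 genes of complex V were fitted higher, and Atp5g1 was at -0.074. For genes with few reads, such as Cox7c, Uqcrc1, Cyc1, Atp5g1 and Atp5g2, depth limits what could be detected.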
